A study of Mus musculus with 6 samples.

Results

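Most products of the antiviral restriction factors described here block a step of viral replication, inside an infected cell or at its surface. The 10 host genes are Mx1, Mx2, Eif2ak2, Bst2, Apobec3, Zc3hav1, Ddx60, Isg20, Adar and Samhd1. They were taken by gene symbol from the 56980 genes of the deposited table, and all 10 were among the 16010 genes with enough counts to be tested. RNA was sequenced from monocytes sorted as CD11b+ Ly6Chi Ly6G- out of B16F10 tumours, a transplanted mouse melanoma, in 6 libraries. The treatment was LNP-GFP, lipid nanoparticles (LNP) that carry GFP, in 3 of them and LNP-Gsdme, which carry mRNA for gasdermin E, a pore-forming protein of lytic cell death, in the other 3. Genotype is labelled WT in both groups, and the tumour cells carried mCherry; strain, age, dose and time after treatment were not stated. The series asked how monocytes in the tumour change after LNP-Gsdme, with type I interferon signalling as its topic. No label ties a library to an animal of its own, and the p-values below therefore speak only of the spread between these libraries, which may be technical.

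Restriction factors are part of cell-intrinsic immunity. Most of them are kept at a low or moderate level in resting cells and are raised by interferons: the receptor activates JAK kinases, and a complex that includes STAT2 and IRF9 binds interferon-stimulated response elements (ISRE) near the start of target genes. Interferon gamma acts through another kind of element, gamma-activated sites (GAS). The members act at different steps. BST2, also called tetherin, holds budding virus particles at the cell surface. The Mx proteins are dynamin-like GTPases that act on incoming viral ribonucleoprotein. EIF2AK2 (PKR), DDX60, ZC3HAV1 (ZAP) and ISG20 sense, target or degrade viral RNA. APOBEC3 deaminates or blocks the DNA made by reverse transcription, and SAMHD1 lowers the supply of deoxynucleotides for it. ADAR edits adenosines in double-stranded RNA and so keeps the cell's own RNA from being sensed.

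The sequences around the annotated start sites of the 4 genes that passed the test, and of 2 that did not but hold a related motif, are shown because the members are known for how they are induced. They are RefSeq windows of assembly GRCm38.p6, from 250 bases before to 50 after a start site, and capitals mark matches, on either strand, to a shorter ISRE form, GAAANNGAA, or to the full form, which adds 1 further A at its end.
Ddx60 (chr8:61927837-61928136, plus strand): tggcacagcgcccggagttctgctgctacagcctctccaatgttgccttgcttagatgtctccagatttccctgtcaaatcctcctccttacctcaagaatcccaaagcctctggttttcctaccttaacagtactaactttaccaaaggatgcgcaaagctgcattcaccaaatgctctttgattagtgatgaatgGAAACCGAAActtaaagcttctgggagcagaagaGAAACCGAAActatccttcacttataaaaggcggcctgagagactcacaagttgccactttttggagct
Bst2 (chr8:71537423-71537722, minus strand): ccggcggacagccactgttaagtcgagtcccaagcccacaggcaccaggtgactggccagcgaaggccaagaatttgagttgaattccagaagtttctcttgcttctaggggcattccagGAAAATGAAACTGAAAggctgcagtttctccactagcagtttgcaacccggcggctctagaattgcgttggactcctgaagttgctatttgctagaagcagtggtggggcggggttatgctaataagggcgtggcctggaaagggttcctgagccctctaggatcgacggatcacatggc
Apobec3 window 1 (chr15:79892158-79892457, plus strand): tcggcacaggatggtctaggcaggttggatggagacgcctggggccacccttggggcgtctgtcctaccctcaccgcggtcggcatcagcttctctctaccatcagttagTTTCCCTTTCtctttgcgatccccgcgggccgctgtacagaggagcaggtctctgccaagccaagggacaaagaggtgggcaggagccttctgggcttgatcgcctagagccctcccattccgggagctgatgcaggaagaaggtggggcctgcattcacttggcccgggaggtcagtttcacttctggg
Isg20 window 1 (chr7:78913174-78913473, plus strand): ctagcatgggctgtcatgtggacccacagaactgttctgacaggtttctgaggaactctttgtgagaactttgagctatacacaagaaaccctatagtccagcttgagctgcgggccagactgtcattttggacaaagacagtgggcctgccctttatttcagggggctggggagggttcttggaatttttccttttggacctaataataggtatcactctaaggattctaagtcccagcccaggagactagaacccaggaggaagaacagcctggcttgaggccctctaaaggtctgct
Eif2ak2 (chr17:78882523-78882822, minus strand): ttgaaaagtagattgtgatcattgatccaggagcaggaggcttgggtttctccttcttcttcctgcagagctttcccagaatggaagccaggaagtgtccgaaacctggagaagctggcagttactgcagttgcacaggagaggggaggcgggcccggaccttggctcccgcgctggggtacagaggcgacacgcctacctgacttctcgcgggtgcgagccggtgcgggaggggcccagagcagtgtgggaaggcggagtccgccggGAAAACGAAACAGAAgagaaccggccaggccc
Adar window 3 (chr3:89730468-89730767, plus strand): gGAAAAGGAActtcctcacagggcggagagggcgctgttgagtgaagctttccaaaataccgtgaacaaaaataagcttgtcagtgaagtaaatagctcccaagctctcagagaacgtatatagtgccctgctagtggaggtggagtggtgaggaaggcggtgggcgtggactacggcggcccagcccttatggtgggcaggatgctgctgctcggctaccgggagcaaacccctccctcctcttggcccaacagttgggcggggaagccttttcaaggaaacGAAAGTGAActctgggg

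RefSeq start windows were found for 8 of the 10 members, 13 windows in all, with several start sites for Adar, Isg20 and Apobec3. The full ISRE letters stood in 4 of the 8 members (Ddx60, Bst2, Apobec3 and Eif2ak2), against 3.99% of the 27025 genes with a window. Ddx60 held 2 separate copies of GAAACCGAAA, whose first bases lie 53 and 19 bases before the start site, and Bst2 held 2 overlapping copies. The Apobec3 match read on the opposite strand, and the Eif2ak2 match lay 18 bases after the start. The shorter form added Adar, whose window 3 held GAAAAGGAA from 249 bases before the start and GAAAGTGAA from 33 bases after it, and so stood in 5 of 8 members against 9.76% of all genes. Isg20, Samhd1 and Zc3hav1 held neither form. The GAS letters TTCNNNGAA stood in 5 of 8 members (Samhd1, Adar, Isg20, Bst2 and Eif2ak2) against 9.55% of genes, and in Bst2 that match overlapped the ISRE. These are matches of letters in a short window, not measured binding sites.

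**Figure D1:**
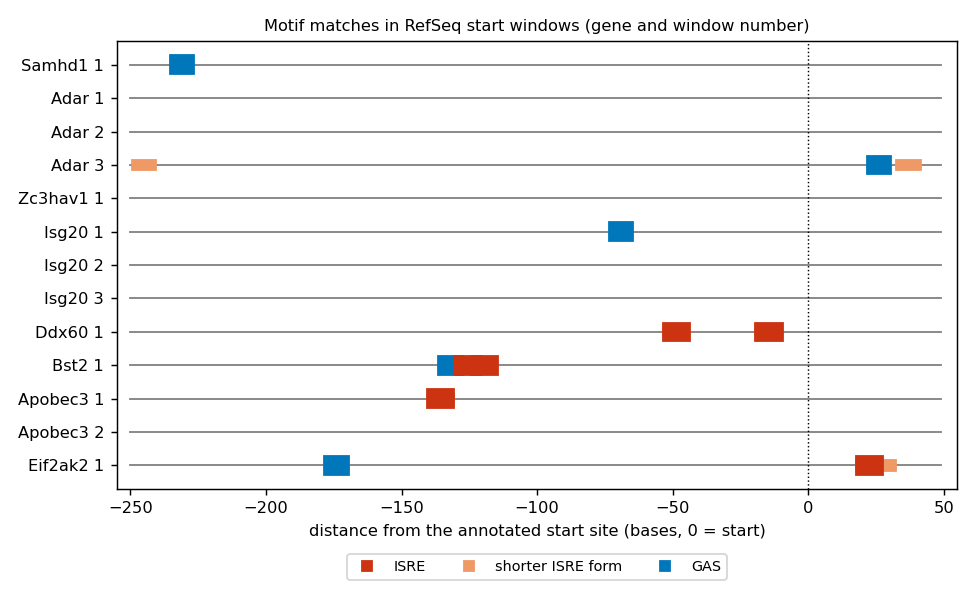
Positions of motif matches in the 13 RefSeq start windows of 8 members, as distance in bases from the annotated start site (0). Red boxes are the full ISRE letters, orange boxes the shorter ISRE form and blue boxes GAS; Ddx60 holds 2 full ISRE matches before the start, and no box lies in the 3 lines of Isg20 except 1 GAS match.

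In LNP-Gsdme, 4 of the 10 restriction factors rose: Isg20, Ddx60, Bst2 and Apobec3 (edgeR's quasi-likelihood test, with p-values adjusted by Benjamini-Hochberg and called below 0.05). Of all 16010 genes tested, 6.30% rose. None of the members fell, by edgeR, DESeq2 or limma-voom. Of all genes 5.32% fell by edgeR, and for 10 genes a count of 0 is near that share. Mx2, the only member with a negative log2 fold change, did not pass at an unadjusted p below 0.05 either. Adar, Samhd1 and Eif2ak2 had an unadjusted p below 0.05 but did not pass over all genes, and Mx1, Zc3hav1 and Mx2 did not reach that level. The median log2 fold change of the 10 was 0.43, against -0.01 over all tested genes. Every LNP-Gsdme library lay above every LNP-GFP library for 7 members, which held for 19.6% of all genes.

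**Figure D2:**
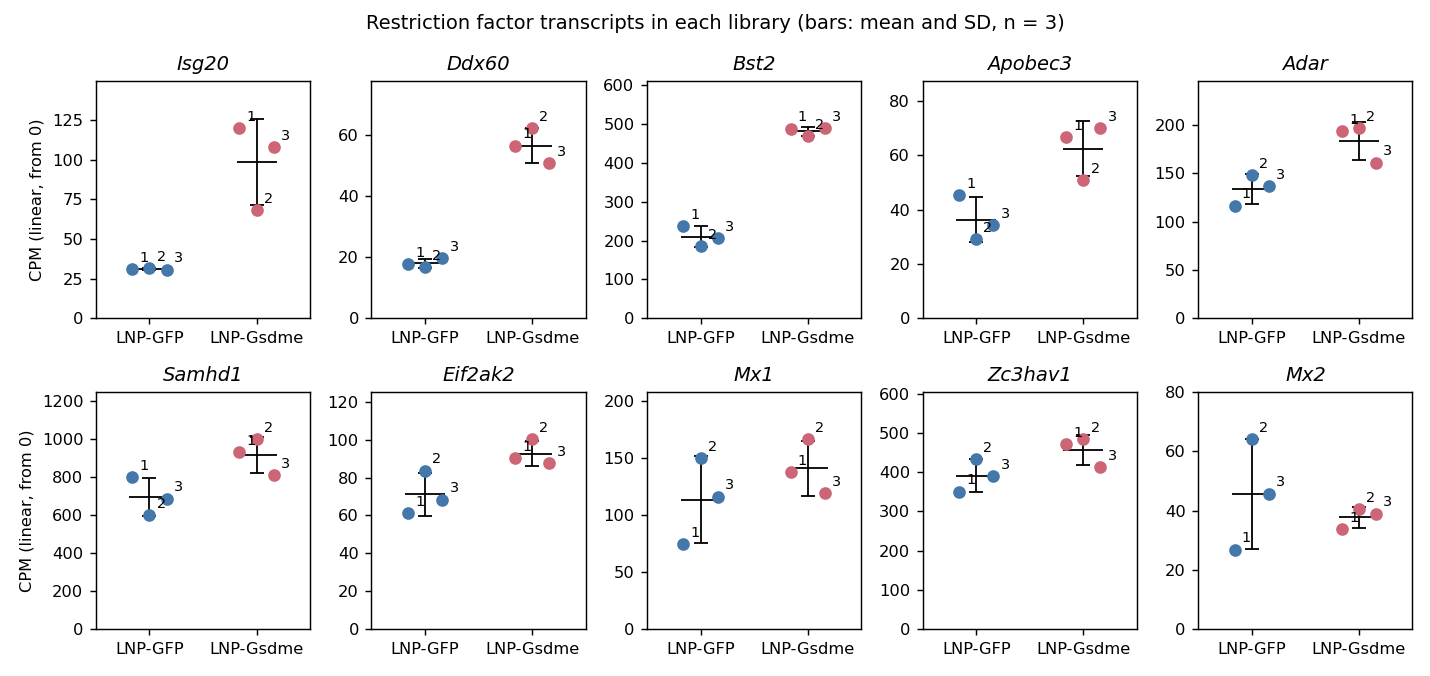
Level of each member in each library, in CPM (counts scaled to a common library total) on linear axes from 0; numbered points are libraries and bars are the mean and SD of 3. The groups lie apart for Isg20, Ddx60, Bst2, Apobec3, Adar, Samhd1 and Eif2ak2 and overlap for Mx1, Zc3hav1 and Mx2.

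The control libraries held 20233559 to 22932095 counts and the treated ones 15991826 to 18751784. The members had at least 365 counts in each. Genes of the sorted cell type were present in every library (Itgam, the CD11b chain, at 327 to 632 CPM and Csf1r, a receptor of monocytes and macrophages, at 713 to 1262 CPM). Ly6c2, a gene of the sorted antigen with a close paralog that may share its reads, stood at 211 to 267 CPM in LNP-GFP and 1374 to 1856 CPM in LNP-Gsdme. Ly6g, the antigen sorted against, was at 0 to 0.618 CPM. Genes of other cell types were present too. The summed CPM of 8 fibroblast markers was 8776 to 9864 in the controls and 2211 to 5557 after LNP-Gsdme, and 3 of the 8 fell. That of 8 melanoma markers was 643 to 2442 and 414 to 995, with 0 of 8 called. Gpnmb, the highest of the 8 by mean, held 319 to 689.8 CPM of it in the controls. After LNP-Gsdme it held 271 to 293 CPM. Sums of 8 NK cell markers were 122 to 515 and 501 to 677 CPM (1 of 7 tested rose). Gzmb was the largest part, at 54.2 to 268 CPM in the controls and 275 to 359 CPM after LNP-Gsdme, followed by Nkg7 and Prf1. The sum therefore mainly follows those genes. The defining marker Ncr1 was at 0 in 1 library and at most 0.936 CPM. Sums of 8 T cell markers were 186 to 522 and 452 to 584 CPM (0 of 8 called; Cd3e at 29.9 to 101 CPM). Their part in the results on restriction factors was not tested, and in bulk RNA fewer cells of a type and less RNA per cell cannot be told apart.

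LNP-GFP 3 lay between the other controls: it was best matched by a mean of LNP-GFP 1 and LNP-GFP 2 with weights near equality (0.474 for LNP-GFP 1). The mean squared residual was 12.0 times the counting variance over 11028 genes, and 17.1 to 43.0 times for the other 5 libraries fitted in the same way. Without LNP-GFP 3 the rises over all genes made up 0.395% and the falls 0.148% of 16219 tested, and 2 members passed, Ddx60 and Bst2.

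Among the RNA-acting members, Ddx60 and Isg20 had the largest rises. Ddx60, a helicase known as a cofactor of RNA sensing by RIG-I-like receptors and as a blocker of translation from some viral RNA (chromosome 8, 62381121 to 62491278, GRCm39), measured 17.6, 16.7 and 19.6 CPM in LNP-GFP libraries 1 to 3, and 56.4, 62.0 and 50.7 CPM in LNP-Gsdme libraries 1 to 3. The lowest LNP-Gsdme library was above the highest control by a wide margin, and both groups were tight. The rise was 3.14-fold, a log2 fold change of 1.65 ± 0.11 (SE, 3 libraries a group; adjusted p = 0.00231). It was 1.72 on the log2 scale without LNP-GFP 3 (adjusted p = 0.0286). Its start window, shown above, holds 2 separate full ISRE copies, and that of Bst2 holds 2 that overlap. Isg20, with a rise of about the same size as Ddx60, held no ISRE match in any window. Eif2ak2 held 1 full match and did not pass. Whether the motif bears on these rises was not tested.

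Isg20, an exonuclease that degrades single-stranded RNA (chromosome 7, 78563172 to 78570144), measured 30.8, 31.8 and 30.7 CPM in LNP-GFP libraries 1 to 3, and 119.8, 68.4 and 108 CPM in LNP-Gsdme libraries 1 to 3. The controls were nearly equal, while LNP-Gsdme 2 stood well below the other treated libraries but above all controls. Its log2 fold change was 1.67 ± 0.20 (SE, 3 libraries a group), a 3.17-fold rise (adjusted p = 0.00995). Without LNP-GFP 3 its size was about the same, 1.66 on the log2 scale, and its adjusted p was 0.0731. The spread among treated libraries, with a coefficient of variation of 27.3%, was the widest of the members in LNP-Gsdme, against 1.94% in LNP-GFP, the narrowest there.

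Eif2ak2, the kinase PKR that halts translation on sensing double-stranded RNA (chromosome 17, 79159993 to 79190002), measured 61.2, 83.7 and 68.4 CPM in LNP-GFP libraries 1 to 3, and 90.2, 100.4 and 87.6 CPM in LNP-Gsdme libraries 1 to 3. The groups did not overlap, but LNP-GFP 2 came close to LNP-Gsdme 3. The log2 fold change was 0.38 ± 0.13 (SE, 3 libraries a group) and did not pass (adjusted p = 0.0979). Without LNP-GFP 2 it was 0.52 and passed (adjusted p = 0.0398).

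Zc3hav1, which encodes ZAP, a zinc-finger protein that binds CpG-rich viral RNA and recruits its decay (chromosome 6, 38282221 to 38331538), measured 350.5, 434 and 391 CPM in LNP-GFP libraries 1 to 3, and 472, 485 and 413 CPM in LNP-Gsdme libraries 1 to 3. LNP-GFP 2 exceeded LNP-Gsdme 3, so the groups overlapped. Its log2 fold change was 0.22 ± 0.11 (SE, 3 libraries a group; adjusted p = 0.210). Adar, the RNA editing enzyme (chromosome 3, 89622329 to 89660753), measured 116, 148 and 137 CPM in LNP-GFP libraries 1 to 3, and 193, 196 and 161 CPM in LNP-Gsdme libraries 1 to 3. All treated libraries were above all controls. The log2 fold change of 0.46 ± 0.12 (SE, 3 libraries a group) missed the threshold narrowly (adjusted p = 0.0567). It passed without LNP-Gsdme 3 (adjusted p = 0.0390) and with DESeq2 (adjusted p = 0.0125). The gene makes a long, interferon-induced and a short, constitutive protein from different start sites, and counts per gene do not separate them.

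Of the members that act on DNA made by reverse transcription, Apobec3 passed at the margin. Apobec3, a cytidine deaminase with a single gene in mice (chromosome 15, 79775860 to 79800107), measured 45.4, 29.1 and 34.2 CPM in LNP-GFP libraries 1 to 3, and 66.8, 50.8 and 69.9 CPM in LNP-Gsdme libraries 1 to 3. LNP-GFP 1 and LNP-Gsdme 2 came closest to each other, without overlap. The log2 fold change was 0.79 ± 0.20 (SE, 3 libraries a group; adjusted p = 0.0497), a 1.72-fold rise. The call held in 6 of 17 alternative settings. These include the same fit read at an adjusted p below 0.01, where it could not hold. It was lost without any one of 5 of the 6 libraries (adjusted p = 0.107 without LNP-GFP 2, 0.173 without LNP-GFP 3, and 0.154, 0.0907 and 0.0905 without LNP-Gsdme 1, 2 and 3). Over all settings the adjusted p ran from 0.00276 to 0.388 and the log2 fold change from 0.47 to 0.99.

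Samhd1, a deoxynucleotide triphosphohydrolase known for blocking retroviruses in myeloid cells (chromosome 2, 156939453 to 156977185), measured 799, 599 and 687 CPM in LNP-GFP libraries 1 to 3, and 933, 1000.0 and 812 CPM in LNP-Gsdme libraries 1 to 3. LNP-GFP 1 was almost as high as LNP-Gsdme 3. Its log2 fold change was 0.40 ± 0.13 (SE, 3 libraries a group; adjusted p = 0.0939). It passed without LNP-GFP 1 (adjusted p = 0.0351) and with DESeq2 (adjusted p = 0.0425).

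Bst2, the surface tether (chromosome 8, 71986899 to 71990100), rose to nearly the same level in each treated library. It measured 238, 185 and 206 CPM in LNP-GFP libraries 1 to 3, and 488, 469 and 489 CPM in LNP-Gsdme libraries 1 to 3. The treated libraries were nearly equal, and each was above every control. The log2 fold change was 1.20 ± 0.10 (SE, 3 libraries a group; adjusted p = 0.00491), a 2.30-fold rise, and it was also 1.20 without LNP-GFP 3 (adjusted p = 0.0474). BST2 is also a surface marker of plasmacytoid dendritic cells in mice. The summed CPM of 5 other markers of those cells was 81.4 to 86.9 in the controls and 56.5 to 91.8 after LNP-Gsdme. Most of that sum was Tcf4, at 59.9 to 71.0 CPM in the controls and 50.5 to 82.5 CPM after LNP-Gsdme. The sum therefore mainly follows Tcf4, whose log2 fold change was 0.01. Siglech, a defining marker of plasmacytoid dendritic cells, fell (adjusted p = 0.0389). It measured 2.22, 4.58 and 5.74 CPM in LNP-GFP libraries 1 to 3, and 1.01, 1.56 and 1.19 CPM in LNP-Gsdme libraries 1 to 3. The remaining markers of the sum, Ccr9 (-1.49), Klk1 (-0.64) and Cox6a2 (-0.65), were also lower on the log2 scale, but none was called.

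The Mx genes, neighbours on chromosome 16, did not pass. RefSeq lists both as transcribed pseudogenes in the C57BL/6J assembly, where the deposited table lists them as protein coding. Many inbred laboratory strains are known to carry Mx alleles that make no full protein, and the strain used was not stated. As close paralogs, they may share reads, which leaves both counts uncertain. Mx1 (97248235 to 97264107) measured 74.4, 150.4 and 116 CPM in LNP-GFP libraries 1 to 3, and 138, 167 and 119 CPM in LNP-Gsdme libraries 1 to 3. LNP-GFP 2 was above LNP-Gsdme 1 and 3, and LNP-GFP 1 was the lowest of all. Its log2 fold change was 0.31 ± 0.26 (SE, 3 libraries a group; adjusted p = 0.438), and it ran from 0.09 (LNP-GFP 1 left out) to 0.57 (LNP-GFP 2 left out). Mx2 (97336508 to 97362100) measured 26.8, 64.1 and 45.8 CPM in LNP-GFP libraries 1 to 3, and 33.7, 40.5 and 39.0 CPM in LNP-Gsdme libraries 1 to 3. The treated libraries all lay within the range of the controls. The log2 fold change was -0.27 ± 0.29 (SE, 3 libraries a group; adjusted p = 0.553), and it changed sign, to 0.06, without LNP-GFP 2.

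**Figure D3:**
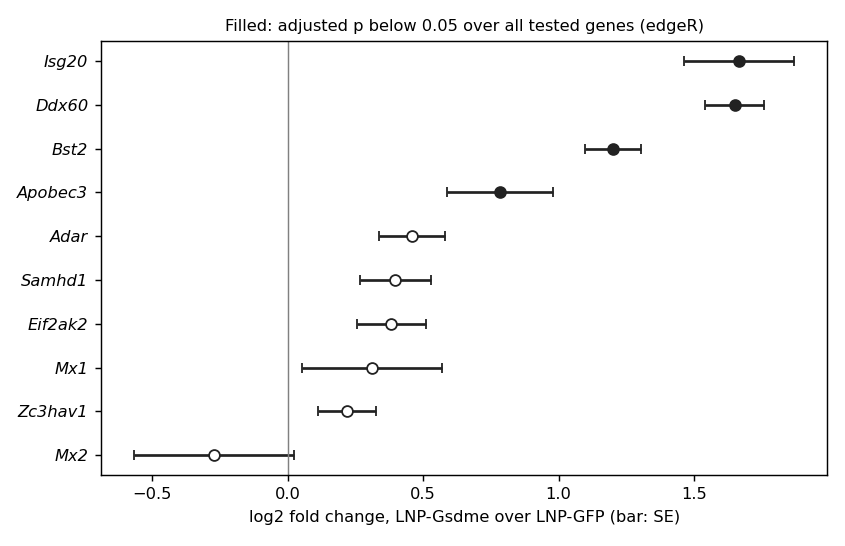
Log2 fold change of each member, LNP-Gsdme over LNP-GFP, with its SE (3 libraries a group); filled points have an adjusted p below 0.05 over all tested genes. Isg20, Ddx60, Bst2 and Apobec3 are filled, from 1.67 down to 0.79, and Mx2 alone lies below 0.

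The members did not vary together among the controls. Mx1, Mx2, Eif2ak2, Zc3hav1 and Adar were lowest in LNP-GFP 1 and highest in LNP-GFP 2, with LNP-GFP 3 between, an order that 30.7% of all tested genes had. Bst2, Apobec3 and Samhd1 had the opposite order, which 31.2% of genes had, and Ddx60 and Isg20 had neither. The spread was widest for the Mx genes: LNP-GFP 2 stood at 141% of the LNP-GFP mean for Mx2 and 132% for Mx1, and LNP-GFP 1 at 58.8% and 65.5%. Apobec3 ran from 80.3% in LNP-GFP 2 to 125% in LNP-GFP 1. The marker sums of melanoma cells (643, 2442 and 1571 CPM in LNP-GFP 1 to 3), neutrophils (187, 406 and 289 CPM), fibroblasts (8776, 9864 and 9300.0 CPM) and plasmacytoid dendritic cells (81.4, 86.9 and 85.0 CPM) had the order of the Mx genes, as had the mitochondrial share of counts (1.70, 2.02 and 1.83%). Those of macrophages (4945, 3125 and 4315 CPM), NK cells (515, 122 and 309.8 CPM), T cells (522, 186 and 351 CPM), B cells and endothelial cells had the order of Apobec3. Whether these cells carried the members' RNA was not tested. In LNP-Gsdme the Mx genes varied less, with coefficients of variation of 17.0% (Mx1) and 9.42% (Mx2), against 33.5% and 41.0% in LNP-GFP; these spreads were not compared by a test.

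**Figure D4:**
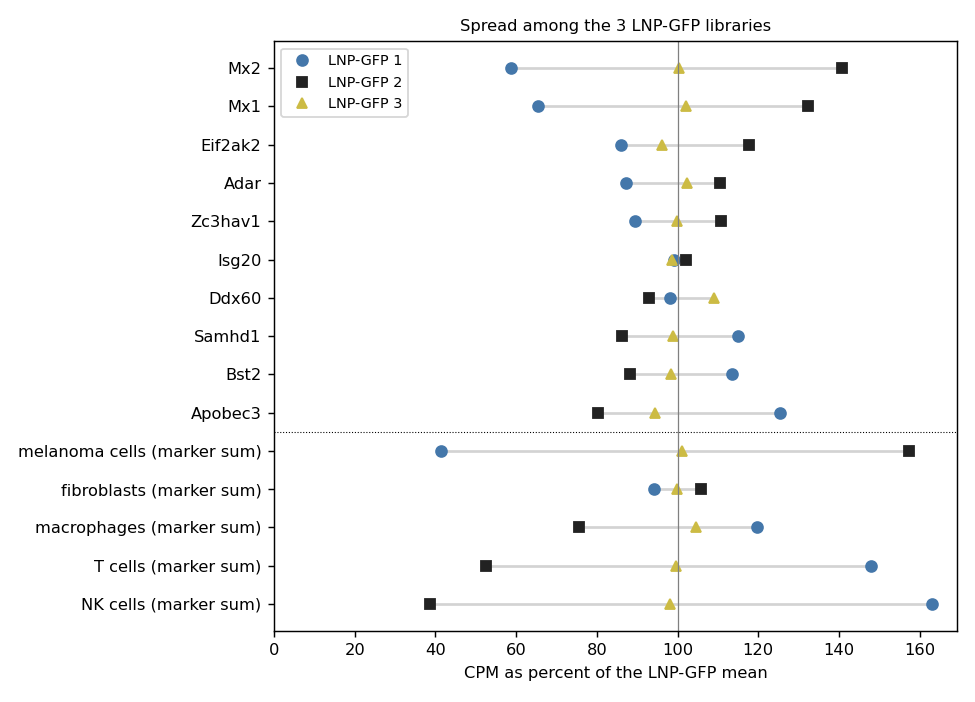
Level in each LNP-GFP library as percent of the mean of the 3, for the 10 members and for the summed CPM of 5 marker lists. Mx2 and Mx1 are spread from 58.8% and 65.5% in LNP-GFP 1 to 141% and 132% in LNP-GFP 2; the melanoma and fibroblast marker sums lie in the same order, and Apobec3, Bst2 and Samhd1 in the reverse order.

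Ddx60 and Bst2 passed without each of the 6 libraries in turn, with log2 fold changes of 1.58 to 1.72 and 1.12 to 1.31. Isg20 passed in 5 of the 6 (1.51 to 1.87), and Apobec3 in 1.

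**Figure D5:**
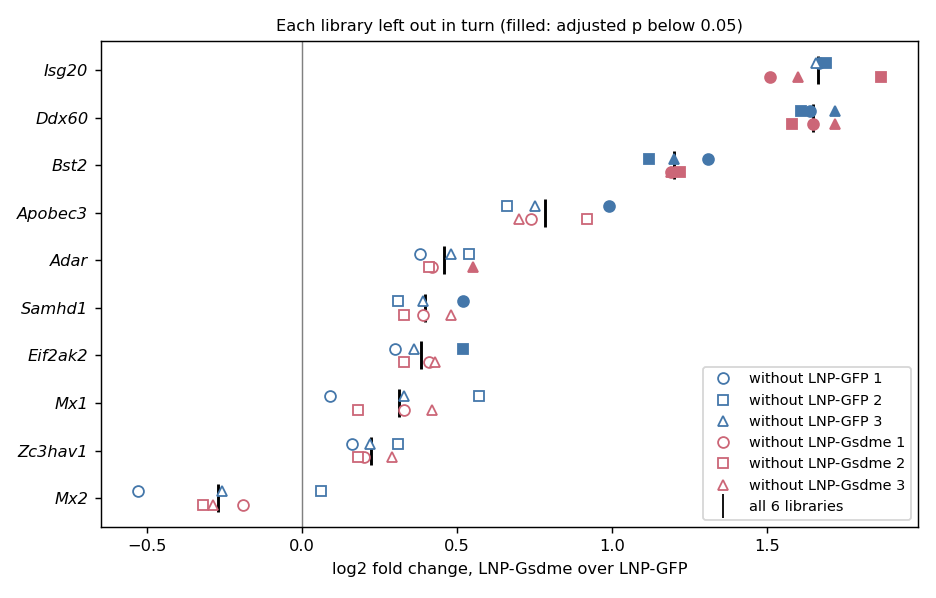
Log2 fold change of each member with each library left out in turn; blue symbols leave out a LNP-GFP library, red symbols a LNP-Gsdme library, filled symbols have an adjusted p below 0.05, and black ticks show all 6 libraries. Ddx60 and Bst2 are filled throughout, and Mx2 runs from -0.53 to 0.06.

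Levels between genes were compared per length, as the authors' deposited FPKM, which divide counts by gene length and library total. Bst2 was the most abundant member in both groups, at 184 ± 25.4 FPKM in LNP-GFP and 431 ± 16.3 FPKM in LNP-Gsdme (SD, n = 3). Samhd1 followed at 59.4 ± 9.24 FPKM (SD, n = 3) in the controls and 79.7, 86.6 and 72.6 FPKM in the treated libraries, and Zc3hav1 at 49.5 ± 4.71 and 58.8 ± 3.83 FPKM (SD, n = 3); their libraries overlapped in LNP-GFP and not in LNP-Gsdme. In LNP-GFP the next 5 in order were Mx1, Adar, Eif2ak2, Mx2 and Isg20, from 18.5 to 8.13 FPKM, and each overlapped its neighbour over the libraries. Apobec3 (1.97 ± 0.474 FPKM) and Ddx60 (1.69 ± 0.144 FPKM; SD, n = 3) were lowest and overlapped. In LNP-Gsdme, Isg20 (26.3 ± 7.14 FPKM) came next after Zc3hav1, overlapping Mx1 (23.5 ± 3.73 FPKM; SD, n = 3), and Apobec3 was lowest at 3.45 ± 0.602 FPKM (SD, n = 3). The lengths implied by the FPKM ran from 1128 bases for Bst2 to 18277 for Apobec3, and the order depends on them.

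Of 15 listed relatives of the members by protein family, 12 could be tested and 9 did not pass. Of the 12, 2 rose and 1 fell, where 6.30% of all tested genes rose and 5.32% fell. Their median log2 fold change was 0.08. Parp12, a PARP family relative of ZAP, rose, with a mean of 119 ± 21.6 CPM in the controls and 208 ± 20.5 CPM after LNP-Gsdme (SD, n = 3; adjusted p = 0.0248). Dnm2, a dynamin of endocytosis, rose by 0.42 ± 0.07 on the log2 scale (SE, 3 libraries a group; adjusted p = 0.0214). Adarb1, the other active adenosine deaminase of double-stranded RNA, fell, with a mean of 12.3 ± 1.58 CPM in the controls and 4.96 ± 1.57 CPM after LNP-Gsdme (SD, n = 3; adjusted p = 0.0240). The fibroblast marker sum was lower in the same libraries, and its part was not tested. The other kinases of eIF2, Eif2ak1, Eif2ak3 and Eif2ak4, had log2 fold changes of -0.03, 0.02 and -0.19. Apobec1 (0.25), Isg20l2 (-0.08), Aen (0.16), Dnm1l (0.13), Skic2 (0.35) and Zc3hav1l (-0.72) did not pass. Apobec2 and Adarb2 were among those too low to test.

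Of 23 partners and pathway genes, 4 rose and 1 fell, where 6.30% of all tested genes rose and 5.32% fell. Their median log2 fold change was 0.13. Zbp1, a sensor of the left-handed RNA that ADAR limits, rose by 1.07 ± 0.12 on the log2 scale (SE, 3 libraries a group; adjusted p = 0.00753). Dhx58 and Ifih1, RNA sensors of the RIG-I-like family, rose, with log2 fold changes of 0.76 ± 0.08 and 0.52 ± 0.10 (SE, 3 libraries a group). Rigi, of the same family and named after its values were seen, did not pass (0.66 ± 0.21 SE, adjusted p = 0.0878). The remaining rise was Khnyn (0.39, adjusted p = 0.0385), a nuclease that works with ZAP, named after its values were seen. Dnajc3, which encodes an inhibitor of PKR that also serves as an ER co-chaperone, fell, with a mean of 122 ± 8.26 CPM in the controls and 82.9 ± 3.69 CPM after LNP-Gsdme (SD, n = 3; adjusted p = 0.0140).

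Of 24 other antiviral effectors, 11 rose, 0 fell and 13 did not pass, where 6.30% of all tested genes rose and 5.32% fell. Their median log2 fold change was 0.53, and 0 fell by limma-voom and 1 by DESeq2. Of those not called, Serinc5 (negative) and Oasl2 (positive) had an unadjusted p below 0.05. Oas3, which makes the activator of RNase L, rose by 1.36 ± 0.12 on the log2 scale, and Mov10, an RNA helicase that restricts retroelements, by 1.15 ± 0.11 (SE, 3 libraries a group). Trim30a and Ifitm3, which have close paralogs, rose, with log2 fold changes of 1.06 ± 0.10 and 0.60 ± 0.07 (SE, 3 libraries a group). Rsad2 and Ifit1, effectors named after their values were seen, had the spread of the Mx genes. Rsad2 (viperin) measured 639.5, 1489 and 1060.0 CPM in the controls and 1113, 1145 and 932 CPM after LNP-Gsdme, and Ifit1 measured 146, 511 and 328 CPM and 210.4, 228 and 176 CPM. In both genes LNP-GFP 1 was below and LNP-GFP 2 above every treated library.

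In the interferon signalling list, 5 of 19 tested genes rose and 0 fell, where 6.30% of all tested genes rose and 5.32% fell. Their median log2 fold change was 0.49. DESeq2 gave 1 fall in this list and limma-voom gave 0. Irf7, the factor that amplifies type I interferon production, measured 325, 242 and 264 CPM in LNP-GFP libraries 1 to 3, and 825, 828 and 724 CPM in LNP-Gsdme libraries 1 to 3. All treated libraries were far above the controls (log2 fold change 1.52 ± 0.13 SE, 3 libraries a group; adjusted p = 0.00473). Socs1, a feedback inhibitor, rose by 0.82 ± 0.14 on the log2 scale, and Ifngr2, a chain of the interferon-gamma receptor, by 0.49 ± 0.11 (SE, 3 libraries a group). Tyk2 (0.68, adjusted p = 0.0477), a kinase of the type I receptor, also rose and is named after its values were seen. Stat2 and Irf9, 2 genes of the complex that binds ISRE, did not pass: Stat2 had a log2 fold change of 0.52 ± 0.20 and Irf9 of 0.05 ± 0.17 (SE, 3 libraries a group; adjusted p = 0.141 and 0.854). Stat2 measured 73.8, 129.6 and 102 CPM in LNP-GFP libraries 1 to 3, in the order of Mx1, and 149, 159 and 129 CPM in LNP-Gsdme libraries 1 to 3. Of the ligands, Ifnb1 measured 17.1, 17.3 and 20.3 CPM in the controls and 14.3, 10.2 and 12.9 CPM after LNP-Gsdme, and did not pass (log2 fold change -0.55; adjusted p = 0.0622). Ifng measured 13.4, 4.17 and 9.34 CPM in the controls and 23.2, 25.5 and 20.4 CPM after LNP-Gsdme, and did not pass either (log2 fold change 1.36; adjusted p = 0.0669). The groups did not overlap for either ligand, and their differences had opposite signs. Of the genes that were not called, Ifnb1 and Jak1 had a negative log2 fold change with an unadjusted p below 0.05, and Ifng, Irf3, Irf1, Usp18, Irf8 and Stat2 a positive one. Without LNP-GFP 3, 5 genes of the 4 related lists rose in place of 22. That number was 7 without LNP-Gsdme 1, 7 without LNP-Gsdme 2 and 27 without LNP-GFP 1.

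The genes whose level over the 6 libraries was most like the mean standardized profile of the members, among 11474 other genes with a mean of at least 4 CPM, were Plscr1, Cd274, Wipf1, Ifih1 and Ranbp10. Pearson's r was 0.996 to 0.998 over 6 libraries that share the group difference. Plscr1, for example, measured 39.4, 45.8 and 43.4 CPM in LNP-GFP libraries 1 to 3, and 55.6, 57.8 and 52.8 CPM in LNP-Gsdme libraries 1 to 3. Cd274, which encodes the checkpoint ligand PD-L1, stood at 715, 817 and 753 CPM and at 984, 1015 and 933 CPM. In both genes LNP-GFP 1 was the lowest library and LNP-Gsdme 2 the highest, as in the mean profile by which they were chosen. Single members could differ from that profile. LNP-GFP 1 was the highest control for Bst2 and Apobec3, and LNP-Gsdme 2 was the lowest treated library for Bst2, Apobec3 and Isg20. For Ddx60, LNP-Gsdme 2 was the highest library, as in the profile.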

How the data were processed

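The authors deposited 1 table with raw counts and FPKM per Ensembl gene and library, per the file headers. Positions are on GRCm39, as the submitters' processing notes name it; no source used here names an aligner, a counting tool or a strand setting. The deposited counts are whole numbers and were not normalized. The deposited FPKM equal the counts over a gene length and the library total (checked on 11356 genes; implied lengths differed by at most 0.00178%) and were used only to compare levels between genes. Genes that overlap a member in the table (Cbx7 and D730005E14Rik with Apobec3, Chrnb2 with Adar, Gm55596 with Eif2ak2) had at most 73 counts in a library.

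Libraries were grouped by the treatment label. Counts were fitted in R 4.3.3 with edgeR 4.0.16 (filterByExpr, TMM factors 0.980 to 1.04, robust quasi-likelihood test, LNP-Gsdme over LNP-GFP, biological coefficient of variation 0.193), after a test on simulated data. Adjusted p-values (Benjamini-Hochberg) are over all 16010 genes, and those below 0.05 were called. SE is the log2 fold change over the square root of F. CPM uses TMM-scaled totals of the tested genes. DESeq2 1.42.0 and limma 3.58.1 were alternatives. Precision is set by 3 libraries per group.

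Members and lists were chosen with earlier results of these data known. Named genes are the members, the relatives, and the 4 called genes with the smallest p of each other list, with Stat2, Irf9 and Irf7 (some genes under the rule are not reported here); all 189 listed entries were matched, 2 by an older symbol. Summed markers of the other lists ran, in LNP-GFP and LNP-Gsdme, from 7125 to 8153 and 7144 to 9152 CPM (Ly6C-high monocytes), 3125 to 4945 and 2989 to 3267 (macrophages), 187 to 406 and 233 to 433 (neutrophils), 330.0 to 334 and 182 to 258 (conventional dendritic cells), 40.7 to 61.4 and 39.4 to 62.3 (B cells) and 263 to 298 and 202 to 246 CPM (endothelial cells). Mitochondrial messenger RNA took 1.70 to 2.02% and 1.00 to 1.28% of counts. Over these sums and those of fibroblasts, melanoma, NK, T and plasmacytoid dendritic cells, exact two-sided permutation p-values were 0.1 or more, the smallest that 3 against 3 allows.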

Additional observations from a re-analysis of the deposited data

How the results depend on the processing

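The direction of 9 of the 10 members was the same in all 17 alternatives. These include the main fit read at an adjusted p below 0.01, where no direction can change. Mx2 ran from -0.53 (without LNP-GFP 1) upward and turned positive without LNP-GFP 2 (0.06) and against LNP-GFP 1 alone (0.50). Of 170 values of members under alternatives, 147 kept direction and side of the threshold, 15 lost the call, 6 gained it and 2 reversed. The count of members that rose was 3 to 6 under other tools, normalizations, filters and an adjusted p below 0.01. Counts of calls moved more. DESeq2 called 1543 genes higher and 1505 lower, and 4 related list genes lower. At an adjusted p below 0.01, 131 genes were higher and 52 lower, with 8 and 0 related list genes. Against LNP-GFP 1 alone 0 members rose, with 8 genes higher and 4 lower over all, and 0 and 0 related list genes. In that setting all spread comes from the LNP-Gsdme libraries, so its calls carry no variation among controls, and the sign for Mx2 depends on the control: LNP-GFP 1 was its lowest control (26.8 CPM), and LNP-GFP 2 (64.1 CPM) was above every treated library. With each library left out in turn, 2 to 5 members, 64 to 1625 of all genes and 5 to 27 related list genes rose, and 24 to 1216 of all genes and 0 to 4 related list genes fell; the lowest values are those without LNP-GFP 3, with 0 related falls also without LNP-Gsdme 1 or 2, and the highest without LNP-GFP 1.

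The labels do not say whether same-numbered libraries form pairs. Deviations of same-numbered libraries from their group means correlated at 0.21, -0.24 and 0.03, and LNP-GFP 2 correlated best with LNP-Gsdme 3 (0.32). With 3 libraries a group, such correlations cannot settle how the libraries were handled. With the replicate number as a block, 3 members rose (Apobec3 had an adjusted p of 0.0615), 103 genes were higher and 52 lower, and 6 related list genes were higher and 0 lower. With single libraries left out, the log2 ratio of summed markers ran from 0.53 to 1.46 for NK cells, from -1.82 to -0.83 for melanoma cells and from -1.84 to -1.13 for fibroblasts. The members had 365 counts or more in each library.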
